A study of Mus musculus with 2 samples.

Results

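The genes described here are the well expressed mouse genes whose symbol is Zfp followed by digits, most of them members of the C2H2 zinc finger family. Genes were chosen by the mean of their RPKM values in both libraries, which had to be at least 5. RPKM divides the reads of a transcript by its length and by the depth of the library. Zfp42, Zfp281, Zfp36 and Zfp352 were left out by name, and each gene was represented by its transcript with the highest summed value. The rule took 145 of 350 genes with such a symbol, out of 22421 genes in all. Of the others, 152 had a mean of 1 to 5 RPKM, 49 were lower, 6 of them at 0 in both libraries, and 4 were the genes left out by name, 2 of which lay above 5 RPKM.

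The cells were CGR8, a mouse embryonic stem cell line grown without feeders in medium with serum and LIF, the cytokine that keeps such cells undifferentiated. The control group received a negative control siRNA and the other group an siRNA against Set1a, in both cases by 2 transfections in a period of 72 hours, and total RNA was sequenced. Each group held 1 library, 2 in total, so no difference below has a replicate check and none was tested. Intervals are exact Clopper-Pearson 95% intervals from read numbers recovered from the RPKM values, and they cover counting error only. Set1a (Setd1a in the files) codes for an enzyme that methylates lysine 4 of histone H3, and the comparison asks which transcripts differ when it is targeted.

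A C2H2 zinc finger is a short fold held by a zinc ion, and a row of fingers reads a stretch of DNA base by base. Many of these proteins also carry a KRAB box, which binds the corepressor TRIM28. TRIM28 in turn brings the methyltransferase SETDB1, HP1 proteins and histone deacetylases to the bound site. In embryonic stem cells this machinery silences endogenous retroviruses and guards imprinted loci, and its genes lie in clusters that arose by duplication. Zinc finger proteins without the box are a mixed class of DNA-binding and RNA-binding proteins with separate roles.

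The depths corresponded to about 6660000 reads with control siRNA and 6400000 with Set1a siRNA. The targeted gene, Setd1a, stood at 14.2 RPKM with control siRNA and 11.97 with Set1a siRNA, a ratio of 0.846 with an interval of 0.745 to 0.958. All 9 embryonic stem cell markers, among them Pou5f1, Nanog and Sox2, lay between 75.8 and 2004 RPKM in both libraries. Of 6 fibroblast markers the highest value was 3.86 RPKM, and Col1a2 and Twist2 were listed at 0. Of 5 extraembryonic endoderm markers none passed 0.974 RPKM. Of 4 trophectoderm markers Krt8 was the highest, at 4.74 and 5.35 RPKM, and Cdx2 and Elf5 were listed at 0. The 9 markers of the 2-cell-like state, a rare state of such cultures marked by Zscan4 genes, summed to 14.3 RPKM with control siRNA and 206 with Set1a siRNA. Whether this state has a part in the differences of the zinc finger genes was not tested. In bulk RNA, fewer cells of a type and less RNA per cell cannot be told apart.

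A KRAB box was looked for in the translated coding sequence of each of the 145 genes, by patterns of 2 stretches of its conserved A segment. A gene was counted if the first stretch matched, or if the second matched in a protein with at least 3 fingers. By this rule 79 genes held a box, and a box that departs from both stretches would be missed. The coding segments below belong to genes to which the results return, 4 of them low with Set1a siRNA and 2 not. They come from GENCODE M21 transcripts on GRCm38, all on the plus strand and each within 1 exon. Zfp992 lies at chr4:146464422-146464508 in exon 3 of 4, Zfp982 at chr4:147510771-147510857 in exon 2 of 3, and Zfp987 at chr4:146121902-146121988 in exon 3 of 4. Zfp60 lies at chr7:27738321-27738407 in exon 3 of 5, Zfp57 at chr17:37006086-37006172 in exon 4 of 5, and Zfp568 at chr7:29997768-29997854 in exon 4 of 9. Capitals mark both stretches, which match in all of these genes, and lower case the bases between them.
Zfp992: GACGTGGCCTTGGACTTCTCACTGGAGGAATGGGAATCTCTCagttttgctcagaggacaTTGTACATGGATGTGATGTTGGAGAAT
Zfp982: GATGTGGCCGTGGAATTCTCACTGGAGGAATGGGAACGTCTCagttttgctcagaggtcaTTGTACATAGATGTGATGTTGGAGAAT
Zfp987: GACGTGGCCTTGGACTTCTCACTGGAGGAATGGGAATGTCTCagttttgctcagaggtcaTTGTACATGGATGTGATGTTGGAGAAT
Zfp60: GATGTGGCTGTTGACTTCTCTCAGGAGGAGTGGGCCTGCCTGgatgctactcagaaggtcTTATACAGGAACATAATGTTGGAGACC
Zfp57: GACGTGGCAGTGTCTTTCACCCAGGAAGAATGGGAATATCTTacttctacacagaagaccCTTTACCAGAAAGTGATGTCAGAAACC
Zfp568: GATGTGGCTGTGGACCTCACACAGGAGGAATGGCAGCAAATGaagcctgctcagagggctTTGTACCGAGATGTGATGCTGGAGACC

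Over these 87 bases Zfp992 was 97.7% identical to Zfp987 and 92.0% to Zfp982, its neighbours on chromosome 4. Its identity to the others was lower, at 66.7% for Zfp60, 67.8% for Zfp57 and 71.3% for Zfp568. The first 3 segments are thus close copies of one another, while the last 3 are distant relatives.

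In the control siRNA library the 145 genes ranged from 5.14 to 465 RPKM with a median of 12.1. In the Set1a siRNA library they ranged from 4.46 to 405 RPKM with a median of 11.7. The number under 10 RPKM was 55 with control siRNA and 64 with Set1a siRNA, and the number at 100 RPKM or more was 14 and 10. Their summed RPKM was 5335 with control siRNA and 4666 with Set1a siRNA, a ratio of 0.875, and went from 1.44% to 1.28% of the summed RPKM of all genes whose mean was 5 or more. Zinc finger transcripts thus took a smaller share of the second library.

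The rule used the mean of both libraries and so did not fix the direction of the difference between them. Nevertheless it drew on the same 2 values, and the counts that follow are descriptions. At the lower end, the genes just outside the threshold were Zfp318, Zfp566, Zfp777 and Zfp707, with means of 4.80, 4.85, 4.93 and 4.97 RPKM. Just inside were Zfp760, Zfp866, Zfp74 and Zfp408, with means of 5.03, 5.05, 5.13 and 5.22 RPKM. The values of these neighbours did not all lie the same way. Zfp566 was at 3.82 RPKM with control siRNA and 5.89 with Set1a siRNA, and Zfp408 was at 5.99 and 4.46.

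**Figure D1:**
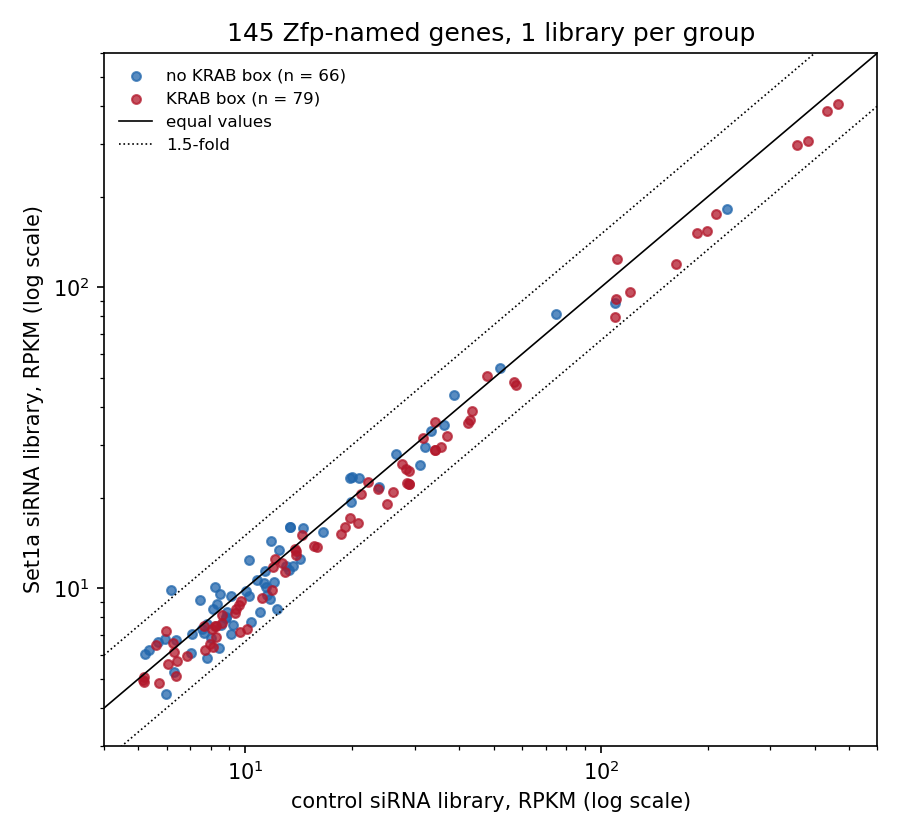
RPKM of each of the 145 Zfp-named genes with control siRNA (x axis) and with Set1a siRNA (y axis), both on log scales, with 79 KRAB genes in red and 66 others in blue. The solid line marks equal values and the dotted lines a 1.5-fold difference, and most red points from 30 RPKM upward lie below the solid line.

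Of the 145 genes, 109 had a lower value with Set1a siRNA and 36 a higher one, so 75.2% were lower, where 50.6% of all 7941 genes at 5 RPKM or more by the same mean were lower and 49.4% higher. The fold of each gene was taken as log2 of the ratio of the Set1a siRNA value to the control siRNA value, with 1 RPKM added to each, which understates the change of low genes. The median fold was -0.13 over the 145 genes, with the middle of them between -0.25 and -0.00 (first and last quartile), and -0.00 over all 7941 genes. The counting interval lay below 1 for 47 genes (32.4%) and above 1 for 6, against 13.7% and 13.1% of all genes. Read numbers were similar, with a median of 548 over both libraries for the zinc finger genes and 576 for all genes.

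The differences were small. At least 1.5-fold, 1 of the 145 genes was higher, Zfp423, and none was lower, where 1.49% and 0.869% of all genes passed. By a milder rule, a ratio of 0.8 or lower or its inverse or higher with 1 RPKM added to each value, 17 were lower and the same single gene was higher, where 6.12% and 6.62% of all genes passed. None reached 2-fold in either direction. The zinc finger genes thus leaned to 1 side by a small amount each, and few stood out alone.

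More of the KRAB genes than of the others lay on the low side. Of 79 genes with a KRAB box 69 were lower and 10 higher, with a median fold of -0.19. The interval lay below 1 for 31 (39.2%) and above 1 for 1 (1.27%), against 13.7% and 13.1% of all genes. Of these 31, 11 lay in the largest run of neighbours and 15 had a near-identical transcript, as described below, some of them both. Of 66 genes without the box 40 were lower and 26 higher, with a median of -0.04. Their interval lay below 1 for 16 (24.2%) and above 1 for 5 (7.58%). The summed RPKM of the KRAB genes with Set1a siRNA was 0.853 of that with control siRNA, and that of the others 0.945. With 1 library per group the difference between these classes was not tested. A profile of the box found the same 79, but it was built from 208 genes that match both stretches of the pattern. It is therefore not an independent check. A stricter pattern, which asks for both stretches close together, found 63 of the 145, with a median fold of -0.18. The median of the genes then left without the box was -0.10 in place of -0.04.

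Genes of other names gave values close to these. Among genes at the same level with at least 3 fingers and another kind of symbol, 32 held a KRAB box and had a median fold of -0.20, with 27 lower and 5 higher. Another 88 without the box had a median of -0.04, with 51 lower and 37 higher. The Zscan4 genes in that last class were far higher with Set1a siRNA, with folds of 3.48 to 3.71. Zfp-named genes at 1 to 5 RPKM lay nearer to equality, with a median of -0.10 for 102 KRAB genes, of which 67 were lower, and 0.00 for 50 others, of which 25 were lower. All genes at that level had a median of 0.04 and 45.1% were lower. The added 1 RPKM shrinks folds most at that level. Without it the median ratio was 0.918 for these 102 KRAB genes and 1.04 for all genes at 1 to 5 RPKM. At 5 RPKM or more it was 0.872 for the 79 Zfp-named KRAB genes and 0.998 for all genes.

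**Figure D2:**
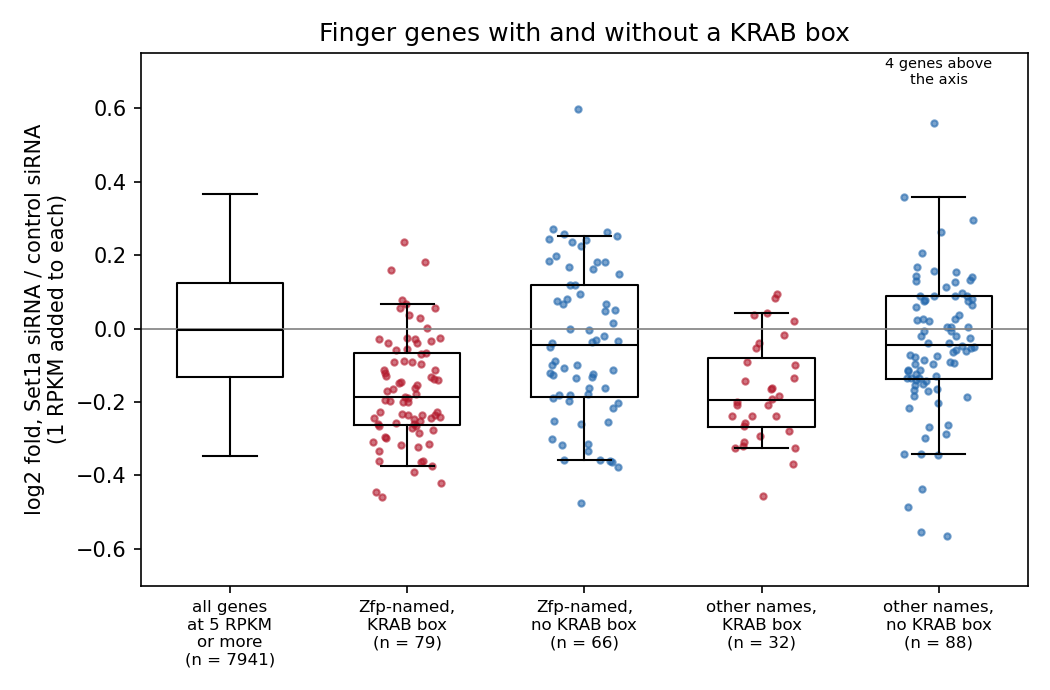
Fold (y axis, log2 of Set1a siRNA over control siRNA with 1 RPKM added to each) for all 7941 genes at a mean of 5 RPKM or more and for finger genes with and without a KRAB box, by kind of symbol. Boxes span the quartiles with the median as a line, whiskers run from the 5th to the 95th percentile, points are single genes, and 4 Zscan4 genes at 3.48 to 3.71 lie above the axis. Both KRAB classes have medians near -0.2, and both classes without the box lie near 0.

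The highest levels among the 145 genes belonged to KRAB genes of chromosome 4. Zfp987 was at 465 RPKM with control siRNA and 405 with Set1a siRNA, Zfp534 at 432 and 385, and Zfp980 at 382 and 307. Zfp600 was at 356 and 297, Zfp981 at 211 and 176, Zfp991 at 198 and 154, and Zfp984 at 186 and 151. All of these were lower with Set1a siRNA. The remaining gene of the 8 with the highest means was Zfp488, which has no KRAB box and is known for a role in oligodendrocyte differentiation, at 226 RPKM with control siRNA and 181 with Set1a siRNA. Of 12 genes whose mean reached 100 RPKM 11 were lower, with a median fold of -0.28, and Zfp57 alone was higher.

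Those 7 KRAB genes belong to the largest run of neighbours. By the gene order of the RefSeq annotation of GRCm38.p6, 37 of the 145 genes lay in 7 runs of at least 3 members, with no more than 3 other protein-coding genes between neighbours. The largest run held 11 members, all with a KRAB box: Zfp980, Zfp987, Zfp600, Zfp992, Zfp981, Zfp991, Zfp982, Zfp985, Zfp979, Zfp534 and Zfp984. All 11 were lower with Set1a siRNA with an interval below 1, with folds from -0.46 to -0.16 and a median of -0.30. Their median read number over both libraries was 7468, against 576 for all genes at 5 RPKM or more. At such depth even small differences give an interval clear of 1. The summed RPKM of the 11 was 2733 with control siRNA and 2262 with Set1a siRNA, a ratio of 0.828. This run alone made 51.2% of the summed RPKM of the 145 genes with control siRNA and 48.5% with Set1a siRNA.

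Within the run Zfp982 and Zfp992 were the lowest relative to the control. Zfp982 was at 110 RPKM with control siRNA and 79.6 with Set1a siRNA, a ratio of 0.725 with an interval of 0.654 to 0.803. Zfp992 was at 163 and 119 RPKM, a ratio of 0.733 with an interval of 0.702 to 0.766. Zfp534 stood nearest to equality, with a ratio of 0.893 and an interval of 0.865 to 0.922, and Zfp987 followed with 0.872 and an interval of 0.845 to 0.900. The intervals of the first pair and of the last pair did not overlap, although the KRAB segments of Zfp992 and Zfp987 printed above differ at few bases.

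Reads of these genes may be shared between copies. Of the 11 members of the run, 9 had a transcript at least 90% identical to another listed one over at least 50% of the shorter. How the authors counted reads that match several copies is not given, so the values of single copies are uncertain. Sums over a family depend less on how reads were split between copies. They would still count a read more than once if the authors did. Summed over Zfp600, Zfp980 and Zfp981 there were 24396 reads with control siRNA and 19252 with Set1a siRNA. Rex2, a near-identical gene of another name, is not in this sum. Zfp534 and Zfp987 together had 16959 and 14375 reads, and Zfp984, Zfp985, Zfp991 and Zfp992 together had 14243 and 10593, at identities of up to 99.3%. Each of these family sums was lower by more than the depth ratio of 0.961.

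Among all 145 genes 25 had a near-identical transcript, and 24 of these held a KRAB box. Those 24 had a median fold of -0.24, with 22 lower. The 55 KRAB genes without such a copy had a median of -0.14, with 47 lower and 8 higher. The interval lay below 1 for 16 of them (29.1%), against 13.7% of all genes. Zfp966 and Zfp967, whose transcripts match fully over the shorter one, were listed with the same values, 34.2 RPKM with control siRNA and 28.9 with Set1a siRNA, and are not separate measurements. Zfp97 and Zfp960, at 98.8% identity, together had 2043 reads with control siRNA and 1635 with Set1a siRNA. Not every family sum fell, as Zfp808 and Zfp934, at 93.8% identity, together had 1310 reads with control siRNA and 1323 with Set1a siRNA.

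The other runs lay nearer to equality. A run of 10 KRAB genes from Zfp948 to Zfp945 had a median fold of -0.10, with 9 lower and a range from -0.39 for Zfp946 to 0.07 for Zfp945. Zfp868, Zfp869 and Zfp866 had a median of -0.24, and Zfp871, Zfp799 and Zfp472 one of -0.13, all 6 lower. Zfp808, Zfp935 and Zfp934 had a median of 0.06, with Zfp808 at 48.0 RPKM with control siRNA and 50.7 with Set1a siRNA. Zfp74, Zfp568, Zfp260 and Zfp146 had a median of -0.06, and Zfp397, Zfp35 and Zfp24, none of them with a KRAB box, one of -0.09. The 68 KRAB genes outside the largest run had a median of -0.15, with 58 lower and 10 higher.

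**Figure D3:**
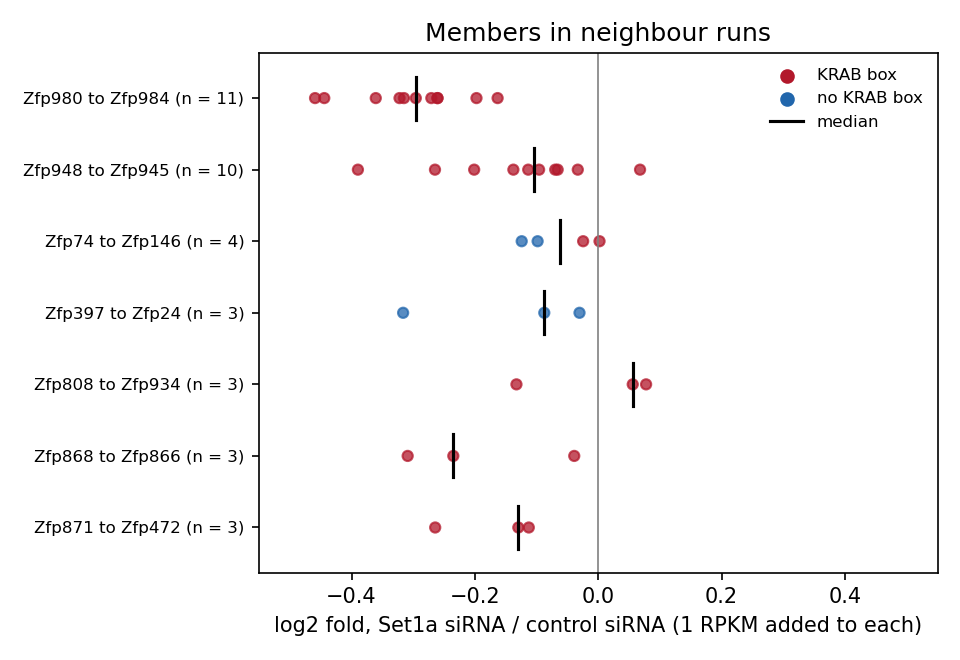
Fold (x axis, log2 of Set1a siRNA over control siRNA with 1 RPKM added to each) of the 37 genes in the 7 neighbour runs, one row per run named by its first and last gene. Red points hold a KRAB box and blue points do not, and black bars are medians. All 11 points of the top row lie left of 0, between -0.46 and -0.16.

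By level, KRAB genes at 5 to 10 RPKM had a median fold of -0.13 (28 genes), those at 10 to 30 RPKM one of -0.19 (27 genes), and those at 30 RPKM or more one of -0.25 (24 genes). Across the 79 KRAB genes the fold and the log2 of the mean RPKM had a Pearson r of -0.33 and a Spearman rho of -0.37. Across the 66 others r was 0.00 and rho 0.09. These are across genes of the same 2 libraries, many of them in 1 run, and genes are not replicates.

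By number of fingers, 32 genes with 1 to 5 had a median fold of -0.01, 42 with 6 to 10 one of -0.14, and 68 with 11 or more one of -0.16. The finger pattern matched nothing in Zfp330, Zfp781 and Zfp839, which are in none of the classes by number of fingers. Within the KRAB genes the order was not the same, with -0.24 for 25 genes with 1 to 10 fingers and -0.16 for 53 with 11 or more. Among genes without the box, 27 with 1 to 5 fingers had a median of 0.05 and 37 with 6 or more one of -0.12.

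GC content moved with the fold. Transcripts of KRAB genes had a median GC content of 39.4%, those of the others 49.96%, and those of all 7941 genes 50.2%. Across the 145 genes GC content and fold had an r of 0.46 and a rho of 0.38, within the KRAB genes 0.31 and 0.21, and within the others 0.36 and 0.34, as a description across genes that share both libraries. Under 45% GC, 65 KRAB genes had a median fold of -0.20, 15 genes without the box one of -0.12, and all 1791 genes of that GC range one of -0.04. At 45% GC or more, 14 KRAB genes had a median of -0.13 and 51 others one of -0.02, against 0.01 for 6075 genes of that range. After removal of a smooth trend (a cubic in GC content and in log transcript length, fitted on all genes), the medians were -0.15 for the KRAB genes, -0.07 for the others and -0.01 for all genes. The KRAB median lay below that of all genes in both GC ranges and after the trend was removed, by a smaller amount. Removal of the trend also brought the KRAB median nearer to that of the others. Under 45% GC the KRAB genes had a median GC content of 38.6% and all genes 42.3%, so the ranges did not hold GC content equal. Whether GC content has a part in the differences was not tested.

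**Figure D4:**
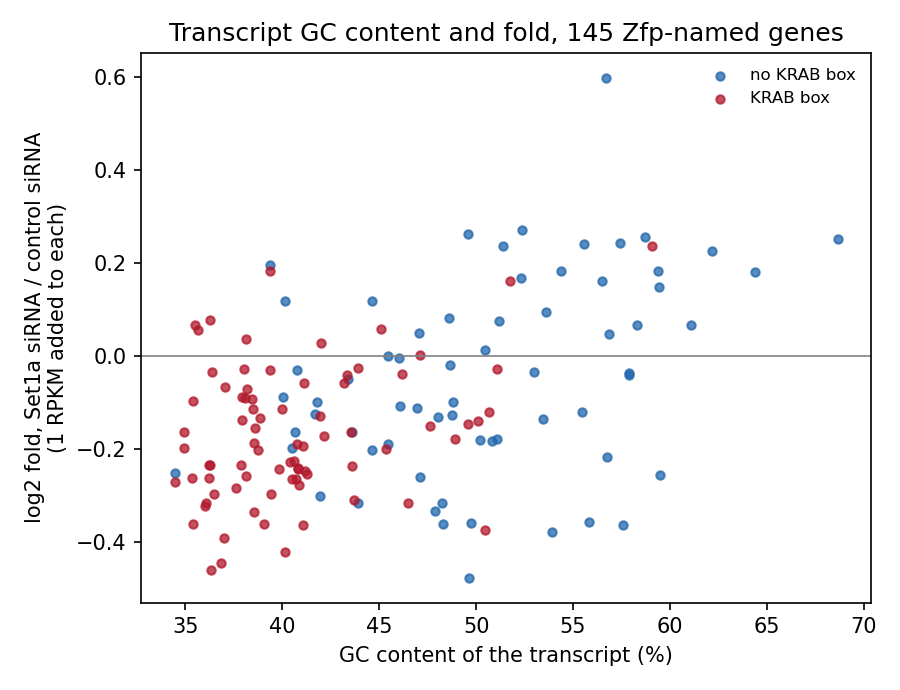
Fold (y axis, log2 of Set1a siRNA over control siRNA with 1 RPKM added to each) against GC content of the transcript in percent (x axis) for the 145 genes, KRAB genes in red and others in blue. KRAB genes sit mostly under 45% GC and below 0, and the highest point is Zfp423 at 0.60.

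Start sites were described from the RefSeq promoter table of GRCm38.p6, which gives 250 bases before to 50 bases after a start and matched 119 of the 145 genes. CpG dinucleotides were counted because SET1 complexes are known to be recruited to unmethylated CpG-rich promoters. Neither SET1 binding nor DNA methylation was measured in these libraries. The promoters of 71 KRAB genes held a median of 10 CpG in 300 bases, those of 48 others 18.5, and those of 6346 genes at 5 RPKM or more 22. A GC box, GGGCGG on either strand, was in 42.3% of KRAB promoters, 62.5% of the others and 68.2% of those of genes at 5 RPKM or more, against 35.9% of all 27025 promoters in the table. TATAAA on either strand was in 4.23%, 8.33% and 6.84% of the same classes, against 14.2% of the whole table. KRAB promoters thus held fewer CpG and fewer GC boxes than those of all well expressed genes. Promoters with at least 10 CpG (76 genes) had a median fold of -0.10 and 56 lower, and those with fewer (43 genes) one of -0.20 and 36 lower. At least 10 CpG were in 50.7% of the KRAB promoters and 83.3% of the others, so this split also divides the KRAB classes unevenly. Whether CpG content has a part in the fold was not tested. The gene farthest down, Zfp263, and the gene farthest up, Zfp423, had 20 and 21 CpG, while Zfp57 had 4 and Zfp982 had 16.

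Among single genes the lowest fold was that of Zfp263, a DNA-binding factor in which the pattern found a SCAN domain but no KRAB box. A KRAB box that departs from the pattern would be missed, so Zfp263 may still hold one. Zfp263 was at 12.3 RPKM with control siRNA and 8.55 with Set1a siRNA, a ratio of 0.696 with an interval of 0.571 to 0.844. By the pattern, 8 of the 12 lowest held a KRAB box: Zfp982 and Zfp992, given above, Zfp60, Zfp946, Zfp7, Zfp965, Zfp65 and Zfp991. Zfp60 was at 10.1 RPKM with control siRNA and 7.30 with Set1a siRNA, with an interval of the ratio of 0.616 to 0.843. Zfp7 was at 24.99 and 19.1 RPKM, Zfp65 at 28.9 and 22.3, and Zfp965 at 28.9 and 22.2. The low end thus spanned weakly and strongly expressed genes. Zfp946 was at 9.68 and 7.15 RPKM, and of those without the box Zfp646 was at 10.3 and 7.73, Zfp704 at 10.97 and 8.32, and Zfp839 at 8.42 and 6.32. The interval of all 12 lay below 1, that of Zfp839 reaching 0.986.

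At the other end stood Zfp423, a transcription factor of adipocyte commitment and cerebellar development with many fingers and no KRAB box. It was at 6.18 RPKM with control siRNA and 9.87 with Set1a siRNA, from about 202 and 310 reads, a ratio of 1.60 with an interval of 1.33 to 1.92. Next came Zfp346, which binds double-stranded RNA, at 8.19 and 10.1 RPKM, with an interval of the ratio of 1.004 to 1.51. Zfp410, an activator of the gene of the chromatin remodeller CHD4, was at 7.45 and 9.13 RPKM, with an interval of 0.963 to 1.56. Chd4 itself was at 58.3 RPKM with control siRNA and 64.1 with Set1a siRNA, a ratio of 1.10 with an interval of 1.04 to 1.16. Zfp532, whose protein binds ZMYND8, was at 19.7 and 23.3 RPKM, with an interval of 1.07 to 1.31, and Zfp219 was at 19.9 and 23.4, with an interval of 1.02 to 1.35. For Zfp414, Zfp771, Zfp64, Zfp511, Zfp13, Zfp770 and Zfp395, the rest of the 12 highest, the interval included 1. Zfp13 was the only KRAB gene among the 12, at 5.97 and 7.21 RPKM.

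**Figure D5:**
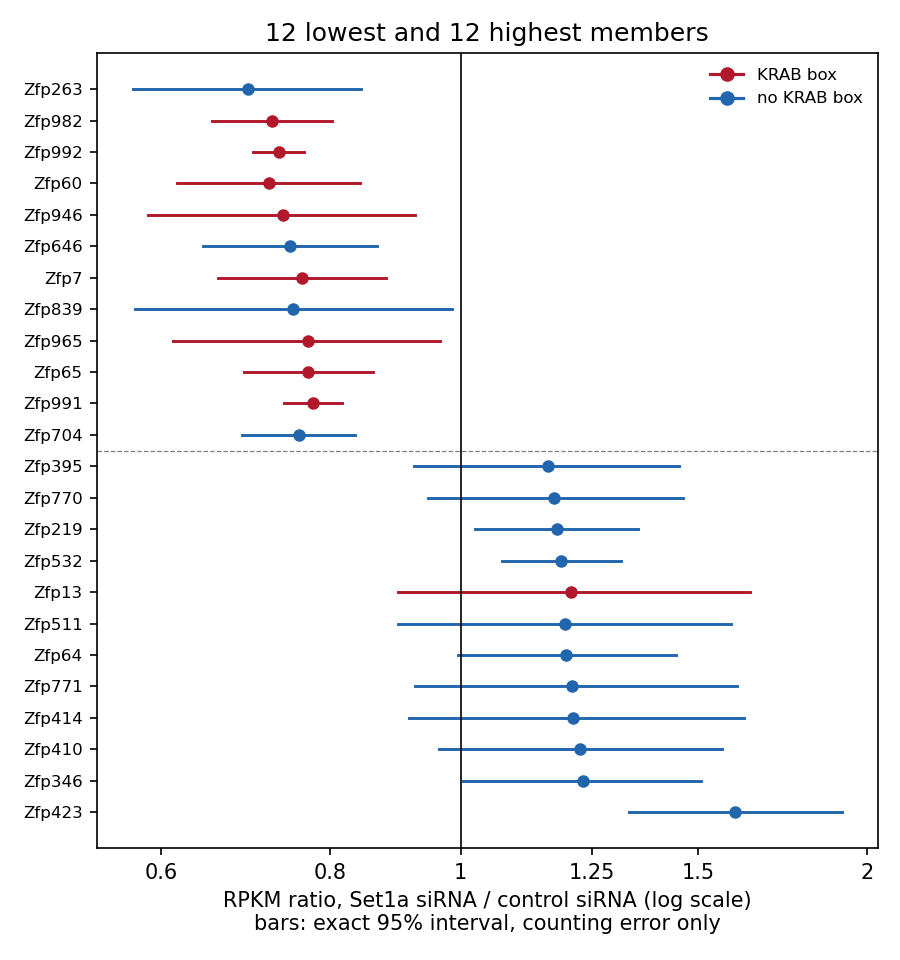
Ratio of RPKM, Set1a siRNA over control siRNA (x axis, log scale), for the 12 lowest and 12 highest of the 145 genes by fold, KRAB genes in red and others in blue. Bars are exact 95% intervals for counting error only, from 1 library per group. All 12 bars of the lower set lie left of 1, and that of Zfp423, from 1.33 to 1.92, lies farthest to the right.

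KRAB genes with known targets did not all lie on the low side. Zfp57, which keeps methylation at imprinted loci, was at 111 RPKM with control siRNA and 124 with Set1a siRNA, a ratio of 1.12 with an interval of 1.04 to 1.21, the only KRAB gene with an interval above 1. Zfp445, which acts at imprinted loci as well, was at 21.2 and 20.6 RPKM, with an interval of the ratio of 0.881 to 1.07. Zfp568, a repressor of a placental Igf2 transcript, was at 31.5 and 31.6 RPKM, with an interval of 0.930 to 1.08. These levels were thus close or higher. Zfp809, which recognises the primer binding site of murine retroviruses, was at 14.4 and 15.1 RPKM, with an interval of 0.813 to 1.35. Zfp932, which represses endogenous retroviral elements, was at 28.5 and 22.4 RPKM, a ratio of 0.786 with an interval of 0.675 to 0.917. Zfp819, another gene linked to silencing of repeats, was at 6.85 and 5.94 RPKM, with an interval of 0.648 to 1.16, which at its depth shows no direction.

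A list of Zfp-named genes with roles known from the literature held 36 of the 145. Of these 20 were higher and 16 lower, with a median fold of 0.05 and intervals above 1 for 6 and below 1 for 6, or 16.7% each way, near the 13.1% and 13.7% of all genes. The list was drawn up with earlier results of these data known, and 6 of its 36 genes held a KRAB box against 79 of the 145, so it supports no statement on the rest. The 6 above 1 were the 6 of all 145 genes, namely Zfp57, Zfp207, Zfp219, Zfp346, Zfp423 and Zfp532. Zfp207, a partner of the mitotic checkpoint protein BUB3, was at 74.9 RPKM with control siRNA and 81.4 with Set1a siRNA, with an interval of 1.001 to 1.18. Among those below 1 was Zfp277, linked to Polycomb repression of the Cdkn2a locus, at 110 and 88.9 RPKM, a ratio of 0.811 with an interval of 0.755 to 0.870. Zfp296, a stem cell factor, was at 30.9 and 25.8 RPKM, with an interval of the ratio of 0.703 to 0.986. Zfp217, a corepressor component, was at 14.3 and 12.5 RPKM, Zfp292 at 13.3 and 11.46, and Zfp462, tied to heterochromatin formation, at 13.0 and 11.8, the last with an interval of 0.823 to 0.998. For 24 of the 36 the interval included 1, as for Zfp106, an RNA-binding protein, at 52.0 and 53.8 RPKM.

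The proteins with which KRAB boxes work were described from a list of 16 genes, of which 5 were higher and 11 lower, with a median fold of -0.04, intervals above 1 for 2 and below 1 for 3. These counts are near the background of 13.1% and 13.7% of all genes, and the values below describe single genes only. Trim28, the corepressor that binds the box, was at 386 RPKM with control siRNA and 446 with Set1a siRNA, a ratio of 1.16 with an interval of 1.12 to 1.19. Setdb1, the methyltransferase of lysine 9 of histone H3 that TRIM28 recruits, was at 24.7 and 24.5 RPKM, with an interval of 0.896 to 1.10. Trim28 was thus higher with Set1a siRNA, where 69 of the 79 KRAB genes were lower and 10 higher. Cbx5, which encodes an HP1 protein, was at 46.5 and 40.8 RPKM, with an interval of 0.830 to 0.928. Dnmt1, the maintenance DNA methyltransferase, had an interval of 0.849 to 0.962 and the deacetylase gene Hdac2 one of 0.845 to 0.998. Of 6 partners of single members 2 were higher and 4 lower, with intervals above 1 for 2 and below 1 for 1. So short a list gives no share to set beside that of all genes. Zmynd8 was at 12.3 and 9.96 RPKM, with an interval of 0.707 to 0.924, and Ehmt1 at 12.1 and 14.3, with an interval of 1.03 to 1.37. Bub3 was at 51.8 and 57.6 RPKM, with an interval of 1.01 to 1.23. For Ehmt2, Wiz and Ncoa6 the interval included 1.

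Several transcripts were listed for 34 of the 145 genes. Of 43 transcripts beside the one used, 42 reached a mean of 5 RPKM, and 41 of those lay on the same side as the transcript used. Transcripts of 1 gene share most of their reads, so these are not separate measurements either.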

How the data were processed

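RNA-seq values of 2 libraries of CGR8 embryonic stem cells were used, 1 per group, grouped by the transfection label. The authors deposited 1 table per library with 28430 RefSeq transcripts and 1 value each. No header names the unit. The deposited values were taken as RPKM, since their product with transcript length rose in equal steps. The depths this gave were 6660000 and 6400000 reads. At these depths 74.6% and 74.0% of the transcripts with 1 to 5 reads were whole to within 0.1 read, where even spacing would give 20%. Transcript lengths were those of GENCODE M21, so read numbers are approximate. TopHat2 2.0.12, TopHat, SAMtools 0.1.16, CASAVA and the build mm9 are named, without role or order, per the submitters' processing notes. How reads were counted, by strand or where they fit more than 1 locus, is not given in the sources used here.

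A symbol was found for 27957 transcripts (98.3%) in a RefSeq table of GRCm38.p6 or in GENCODE M21. As the build differs from mm9, no coordinates of the deposited rows are given, and the positions printed belong to the GRCm38 sequences. Folds are log2 of the ratio of Set1a siRNA to control siRNA RPKM, after adding 1 to each. Since each group held 1 library, replicate error is unknown and no p-value was computed. Ratios carry exact Clopper-Pearson 95% intervals from recovered reads. KRAB boxes, SCAN domains and C2H2 fingers were found by patterns in the translated GENCODE M21 coding sequences of all 145 genes. KRAB boxes were also looked for by a HMMER 3.4 profile, built from genes that match both KRAB stretches. BLAST 2.17.0 served to find near-identical transcripts, at 90% identity over at least 50% of the shorter one. The scripts (Python 3.11.15, pandas 2.3.3, NumPy 2.4.6, SciPy 1.17.1, Biopython 1.88) were tested on simulated data.

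Genes were named by a rule: Setd1a, the 12 highest and 12 lowest folds, the 8 highest means, 4 genes on either side of the threshold, a list of Zfp-named genes with known roles, a list of KRAB partners and partners of single members. Genes of the neighbour runs, near-identical families and start site counts were named in addition, after their values were seen. The members and lists were chosen with earlier results of these data known. Other pseudocounts, floors, scalings, size rules and interval levels were tried. Removal of a trend in GC content and length, of near-identical genes and of the largest run, and the KRAB profile were added after seeing the data.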

Additional observations from a re-analysis of the deposited data

How the results depend on the processing

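No paired analysis was possible because there was 1 library in each group. The median fold of the Zfp-named genes was negative under all 11 settings tried, from -0.17 to -0.10, that of the KRAB genes under all 13, from -0.23 to -0.13, and that of the others under all 12, from -0.10 to -0.02. The KRAB median was below that of the others under all 12 settings that move either of them. All settings use the same 2 libraries and overlapping sets of genes, so they are not independent checks. With a floor of 1 RPKM, which takes in 297 genes, the median was -0.10 over all of them and -0.13 over KRAB genes, 3 genes were at least 1.5-fold higher and 4 lower, and 15 had an interval above 1. A pseudocount of 5, a floor of 10 RPKM and a 2-fold rule each left 0 genes higher, and a rule of a ratio of 0.8 or lower gave 17 lower. With 99% intervals 3 genes lay above 1 and 30 below. The floors change which genes are counted, the pseudocount the fold itself, and the size rules and interval level the threshold. The stricter KRAB pattern moved the median without the box from -0.04 to -0.10, since the genes it no longer counts as KRAB genes join that class. Other scalings moved the values by factors of 0.998 and 0.985, with medians over all genes of 0.00 and 0.02.

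The siRNA cannot be told apart from any other difference between the cultures or libraries, since each group held 1. Depth limits genes near 5 RPKM, such as Zfp819, Zfp13 and Zfp760, whose intervals included 1. The intervals treat reads as assigned to a single transcript, and for near-identical copies it is unknown whether they were.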
